A study of Auxenochlorella pyrenoidosa with 12 samples.

Results

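In a set of 79 contigs, mean levels on a log2 scale climbed with each increase in the dose of potassium peroxymonosulfate. Contigs are assembled transcript sequences, here of the green alga Auxenochlorella pyrenoidosa (also called Chlorella pyrenoidosa). The 79 were picked from a table of 29140 contigs, and 11520 of these averaged 2 FPKM or more over all 12 libraries. FPKM is the number of sequenced fragments divided by contig length and by the fragments of the library. Each library was first scaled to the others by the median of its ratios to the contigs' geometric means, and all levels below are such scaled FPKM unless deposited FPKM are named. On the scale of log2(scaled FPKM + 1), a member had to have group means in the order control, 0.1, 0.2 and 0.5 EC50. Its mean at 0.5 EC50 had to be at least 1 above control and its mean at 0.2 EC50 at least 0.4 above control. Less than 0.5 of the rise at 0.5 EC50 could be present at 0.1 EC50, and the lowest 0.5 EC50 library had to lie above the highest control library. These same values chose the members, so the levels and differences that follow describe them and are not tested.

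The libraries came from RNA of whole cells of this unicellular alga. The control received no oxidant (0 mg/L), and the exposed cultures received 1.70 mg/L of the salt (0.1 EC50), 3.40 mg/L (0.2 EC50) or 8.49 mg/L (0.5 EC50), with 3 libraries per group; the EC50 is the concentration that gives an effect midway between none and full. Chronic exposure in the series lasted 12 days, and no source used here gives the sampling day of the RNA. Whether replicate libraries stem from independent cultures is not stated either, so a p-value here reflects just the scatter of these libraries, which may be technical.

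Peroxymonosulfate is a strong oxidant used in water treatment, and its breakdown can release sulfate and hydroxyl radicals. Oxidants of this kind damage the lipids, proteins and photosynthetic membranes of algae. Algal cells commonly answer oxidants with enzymes that remove hydrogen peroxide, with glutathione metabolism and with protein quality control. The deposited table pairs no contig with a gene name, so none of the 79 members can be assigned to these or to other functions here, and contigs are given by identifier or by their rank. In RNA from a whole culture, a higher level in each cell and more cells that express the transcript cannot be told apart.

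The members were mostly contigs of low or moderate abundance. Their mean over the 12 libraries ran from 2.03 to 328 deposited FPKM with a median of 5.27, against a median of 7.56 over the 11520 contigs. A mean of 5 FPKM was reached by 41 of the 79 members, 10 FPKM by 23 and 100 FPKM by 3. The median member stood at 1.95 scaled FPKM in the controls, 3.53 with 0.1 EC50, 4.85 with 0.2 EC50 and 9.81 with 0.5 EC50. The difference between 0.5 EC50 and control had a median of 1.58 on the log2 scale and ran from 1.01 to 5.07. It was at least 2 in 29 members, at least 3 in 14 and at least 4 in 5. Over all 11520 contigs the same difference had a median of 0.023.

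Added up, the members made up a small part of each library. The sum of their scaled FPKM was 519.9, 533.9 and 549.3 in the 3 controls, 864.1, 881.8 and 709.7 with 0.1 EC50, 1190 (replicate 1), 924 and 1309 with 0.2 EC50, and 3197, 2325 and 3089 with 0.5 EC50. The 4 groups of sums did not overlap, but the most abundant member decided this for the neighbouring 0.1 and 0.2 EC50. Without that contig the sums were 714.9, 556.5 and 1008 at 0.2 EC50 and 534.7, 629.7 and 471.2 at 0.1 EC50, which overlap. In deposited FPKM the members held between 0.0961% and 0.107% of a control library and between 0.464% and 0.673% of a 0.5 EC50 library. The highest value of a member lay in 0.5 EC50 replicate 1 for 47 members, in replicate 2 for 15 and in replicate 3 for 8, and in a library of a lower dose for the other 9.

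**Figure D1:**
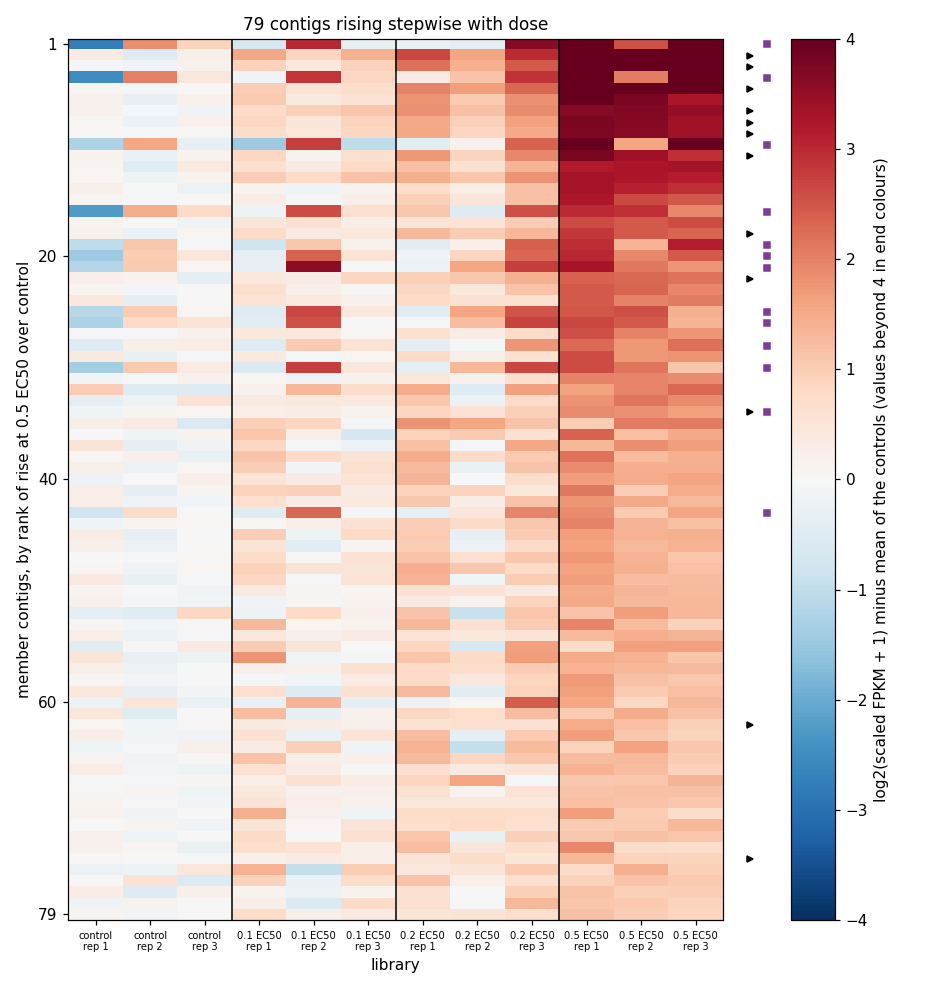
Each row is 1 of the 79 members, ordered by the difference between 0.5 EC50 and control, and each column is 1 library. Colour gives log2(scaled FPKM + 1) minus the mean of the controls, black triangles mark the 12 members without overlap at any of the 3 steps, and purple squares mark the 13 members that are lowest in control replicate 1 and peak in 0.1 EC50 replicate 2 and 0.2 EC50 replicate 3. The 0.5 EC50 columns are high throughout, while single columns at lower doses stand out in the rows with squares.

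In 12 members every library of a dose lay above every library of the dose below it, at all 3 steps from control to 0.5 EC50. These 12 had a median difference between 0.5 EC50 and control of 3.47 on the log2 scale, against 1.58 over all 79 members. Their median pooled SD between replicates was 0.242 on the log2 scale, against 0.392 over all 79 members and 0.201 over the 11520 contigs. A lack of overlap itself favours a large difference and a small spread. The group means of all 12 were no more than 70.7 scaled FPKM in the controls and between 10.3 and 256 at 0.5 EC50. The contigs ranked 2, 3 and 5 of the 79 by this difference are among them and are described by name next.

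TRINITY_DN13892_c0_g1_i1_2 had the largest difference between 0.1 EC50 and control among members whose groups did not overlap at that step and whose mean with 0.1 EC50 was at least 5 scaled FPKM. Its levels were 9.59, 4.90 and 8.84 scaled FPKM in the controls, 23.7, 14.6 and 21.7 with 0.1 EC50, 53.1, 24.2 and 65.8 with 0.2 EC50, and 285, 289 and 192 with 0.5 EC50. No 2 groups overlapped, although the lowest 0.2 EC50 library (24.2) was only just above the highest 0.1 EC50 library (23.7). The steps were 1.28, 1.13 and 2.49 on the log2 scale, from control upwards, with a pooled SD of 0.50. Replicate 2 was the lowest library of the controls, of 0.1 EC50 and of 0.2 EC50.

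TRINITY_DN18466_c0_g1_i1_3 had the largest step from 0.1 to 0.2 EC50 and also the largest from 0.2 to 0.5 EC50 under the same conditions. Its level was low without oxidant, at 1.29, 1.16 and 1.71 scaled FPKM in the controls. It stood at 3.52, 2.17 and 3.54 at 0.1 EC50, at 10.0, 5.32 and 12.0 at 0.2 EC50, and at 58.9, 61.0 and 47.9 at 0.5 EC50. All 4 groups were separate, and the steps were 0.757, 1.27 and 2.55 on the log2 scale.

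TRINITY_DN12431_c0_g1_i1_3 followed nearly the same course at a lower level. It was at 1.38, 1.14 and 1.21 scaled FPKM in the controls, 3.40, 2.24 and 2.65 with 0.1 EC50, 7.87, 6.07 and 9.91 with 0.2 EC50, and 43.6, 39.2 and 34.2 with 0.5 EC50. Its groups were separate too, and its step from 0.1 to 0.2 EC50 was 1.24 on the log2 scale, next after that of TRINITY_DN18466_c0_g1_i1_3.

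TRINITY_DN13875_c0_g1_i1_1 was abundant already in the controls, at 18.8, 15.3 and 19.9 scaled FPKM. It stood at 36.8, 31.4 and 41.0 with 0.1 EC50, 50.0, 39.9 and 64.6 with 0.2 EC50, and 187, 178 and 164 with 0.5 EC50. The step from control to 0.1 EC50, 0.976 on the log2 scale, had no overlap, while 0.2 EC50 replicate 2 (39.9) lay below 0.1 EC50 replicate 3 (41.0). This contig is therefore not among the 12 without overlap. In all 4 named contigs replicate 2 was the lowest library of the controls, of 0.1 EC50 and of 0.2 EC50.

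**Figure D2:**
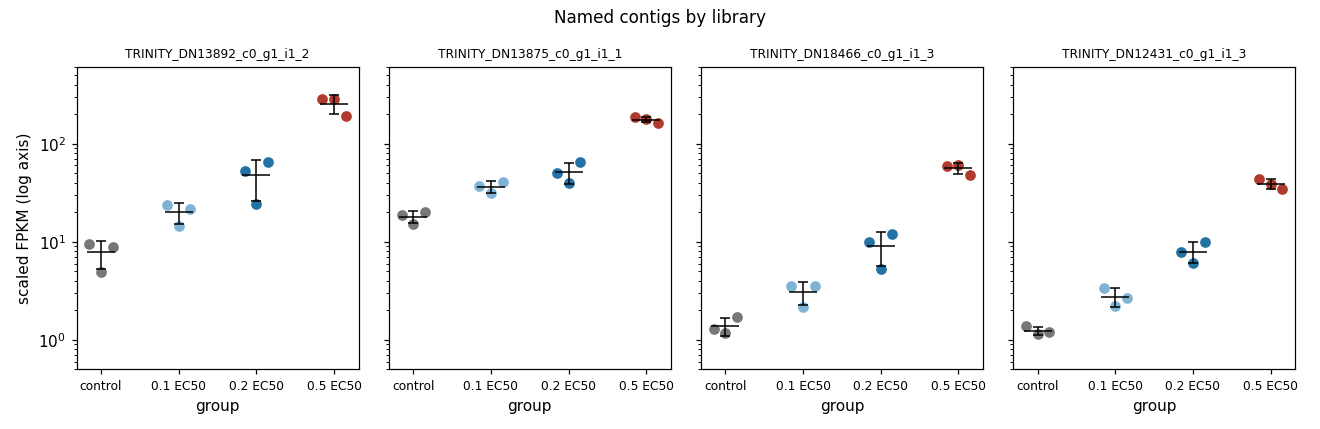
The plot gives scaled FPKM on a log axis for the 4 named contigs, with 1 point per library, the group mean as a horizontal bar and the SD of 3 libraries as the error bar. TRINITY_DN13892_c0_g1_i1_2 lies between 192 and 289 at 0.5 EC50 and between 4.90 and 9.59 in the controls, and in each panel the middle point, replicate 2, is the lowest of the controls, of 0.1 EC50 and of 0.2 EC50.

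The most abundant member had a different course, with a smaller climb that was mostly complete at 0.2 EC50. Its levels were 177, 157 and 183 scaled FPKM in the controls, 329, 252 and 238 with 0.1 EC50, 476, 368 and 301 with 0.2 EC50, and 526, 461 and 392 with 0.5 EC50. Every dose lay above control without overlap, and the groups of neighbouring doses overlapped. The difference between 0.5 EC50 and control was 1.40 on the log2 scale, and 79.8% of it was present at 0.2 EC50. The third most abundant member, at 74.2, 65.4 and 72.3 in the controls, reached 198, 166 and 138 at 0.5 EC50 and had no overlap at any step. The fifth most abundant was at 39.8, 41.2 and 48.4 in the controls, 45.3, 39.2 and 48.9 with 0.1 EC50, 58.7, 48.5 and 67.4 with 0.2 EC50, and 174, 170 and 162 with 0.5 EC50. Its 0.1 EC50 libraries overlapped the controls, and 21.4% of its difference was present at 0.2 EC50.

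The shape of the climb was compared with a straight line in the dose, on which 20% of the final difference would be present at 0.1 EC50 and 40% at 0.2 EC50. The median member had reached 24.2% at 0.1 EC50 and 46.6% at 0.2 EC50 on the log2 scale. At 0.1 EC50, 48 of 79 members were above 20%, and at 0.2 EC50, 54 were above 40%. Both held for 41 members, and 18 were at or below the line at both doses. The rule sets part of this, since its minimum of 0.4 at 0.2 EC50 requires a share of 40% where the whole difference is 1 and a lower one where it is larger. The share at 0.1 EC50 ran from 0.695% to 49.8%, where the rule itself sets the upper end, and the share at 0.2 EC50 from 19.8% to 90.8%. The 12 members without overlap lay closer together, between 13.2% and 26.1% at 0.1 EC50 and between 36.4% and 54.6% at 0.2 EC50. In scaled FPKM instead of logarithms the median shares were lower, 16.6% and 34.5%, and 33 and 36 members lay above the line. These shares ran from -1.16% to 72.5% at 0.1 EC50 and from 4.93% to 101% at 0.2 EC50. Not every member thus kept the dose order of its means in scaled FPKM. The largest of the 3 steps was that from 0.2 to 0.5 EC50 in 59 members, from 0.1 to 0.2 EC50 in 11 and from control to 0.1 EC50 in 9. On the straight line the step from 0.2 to 0.5 EC50 would also be the largest, since it spans the widest range of dose. The rule also keeps the step from control to 0.1 EC50 below 0.5 of the whole difference.

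**Figure D3:**
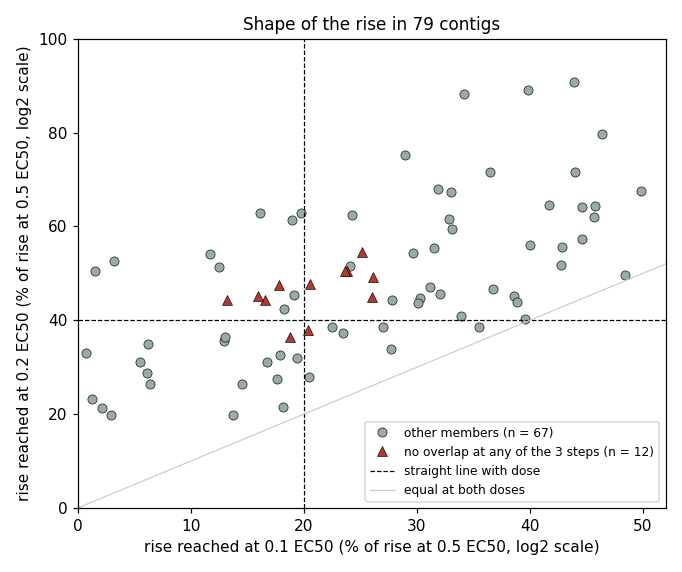
Each point is 1 member, with the percentage of its difference between 0.5 EC50 and control that was present at 0.1 EC50 on the horizontal axis and at 0.2 EC50 on the vertical axis, on the log2 scale. Dashed lines mark the 20% and 40% of a straight line with dose, and the 12 members without overlap at any step (triangles) cluster near the crossing, between 13.2% and 26.1% and between 36.4% and 54.6%.

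Most single steps of single members overlapped between libraries. The 0.1 EC50 libraries lay above all controls in 28 of 79 members, where 16.4% of the 11520 contigs did so. The 0.2 EC50 libraries lay above all 0.1 EC50 libraries in 20 members (8.81% of all contigs), and the 0.5 EC50 libraries above all 0.2 EC50 libraries in 44 (17.7% of all contigs). In limma's moderated test over the 11520 contigs, where a Benjamini-Hochberg adjusted p below 0.05 counts as a call, 54 members were called higher at 0.5 EC50 than in control, as were 5.28% of all contigs. At 0.2 EC50 32 members were called higher than in control (8.82% of all), and at 0.1 EC50 7 were (7.11% of all). Between 0.5 and 0.2 EC50 29 members were called higher (5.15% of all). Between 0.2 and 0.1 EC50 the test called 0 members and 0% of all contigs, while 1505 contigs had an unadjusted p under 0.05. All of these contrasts went into the choice of the members, so the counts describe them and nothing is read from their excess over all contigs. The count at 0.1 EC50 lay between 2 and 11 over the alternatives tried. It was 2 without control replicate 3 or 0.1 EC50 replicate 1, and 3 without control replicate 2. Leaving out control replicate 1, 0.1 EC50 replicate 3 or 0.5 EC50 replicate 2 gave 4. Scaling changed it too, to 3 with values as deposited, 2 with an equal total in every library and 6 with quantile normalization. It was 3 without a filter, 4 in a fit of the 2 groups and 2 without the 4 libraries set apart below. The count at 0.2 EC50 was 20 without control replicate 3 or 0.2 EC50 replicate 1.

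A pair of replicate patterns, picked out after the values were seen, was found in parts of the set. Because of this choice nothing is read from their larger shares among the members than among all contigs. Pattern A held 13 members that were lowest in control replicate 1 among the controls, highest in replicate 2 at 0.1 EC50 and highest in replicate 3 at 0.2 EC50. This order was found in 16.5% of the members and 2.36% of the 11520 contigs. The member with the largest difference of all, 5.07 on the log2 scale, belongs here. It was listed at 0, 23.9 and 11.7 scaled FPKM in the controls, at 3.37, 54.6 and 4.54 with 0.1 EC50, at 4.65, 4.30 and 84.1 with 0.2 EC50, and at 401, 38.4 and 763 with 0.5 EC50. The 0.5 EC50 library at 38.4 lay below the highest library of both lower doses, so only the contrast with control is free of overlap. The member ranked 4 by this difference had the same order, at 0.0937, 23.7 and 7.30 in the controls, 4.48, 43.5 and 9.80 with 0.1 EC50, 6.60, 12.4 and 44.1 with 0.2 EC50, and 187, 24.0 and 350 with 0.5 EC50.

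The members of pattern A had a median pooled SD of 1.28 on the log2 scale, against 0.392 over all members and 0.201 over the 11520 contigs. Only 1 of the 13 had no overlap between 0.5 and 0.2 EC50, and it is also among the 12 without overlap at any step. Of the 13, 2 were called higher at 0.5 EC50 than in control. Medians over the 13, relative to each contig's mean in the controls, were -1.23, 1.04 and 0.287 in the controls, -0.477, 2.62 and 0.175 with 0.1 EC50, -0.27, 0.564 and 2.53 with 0.2 EC50, and 2.95, 2.04 and 1.92 with 0.5 EC50. The order of the replicates at these doses is what defines the pattern. The medians of single libraries at 0.1 and 0.2 EC50 matched the level at 0.5 EC50. Those of the other libraries of these doses lay between -0.477 and 0.564. The part of these single libraries in the differences was not tested.

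Pattern B held 27 members in which replicate 2 was the lowest library of the controls, of 0.1 EC50 and of 0.2 EC50, 34.2% of the members against 12.9% of all contigs. All 4 named contigs and 7 of the 12 members without overlap belong to it. Relative to the mean of the controls the medians of pattern B were 0.796, 0.0797 and 0.586 at 0.1 EC50 and 1.21, 0.613 and 1.14 at 0.2 EC50, where the low value of replicate 2 is what defines the pattern. Earlier results of these data had set apart control replicate 2, 0.1 EC50 replicates 2 and 3 and 0.2 EC50 replicate 2 by the ratios of their low values to those of other libraries. Here the most common ratio of values between 0.01 and 1 FPKM to those in control replicate 1 held 0.42% to 0.644% of such low-value contigs in these 4 libraries and 0.82% to 1.72% in the other 7, a continuous range without a clear gap. Their part in the result was not tested. Without these 4 libraries the rule gave 91 contigs, 42 of them among the 79. In the other 8 libraries 55 of the 79 kept their means in the order of the doses, 75 kept a difference of at least 1 between 0.5 EC50 and control, and the lowest difference was 0.761. Only 1 library at 0.1 EC50 was left in that comparison, and these 8 libraries had also taken part in choosing the members. Leaving out 0.2 EC50 replicate 2 alone gave 139 contigs, 73 of the 79 among them. In deposited FPKM that library had 14015 contigs at 1 or more and 4413 listed at 0. The other libraries had 14989 to 18475 and 2234 to 3367. The part of this difference in the result was not tested.

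**Figure D4:**
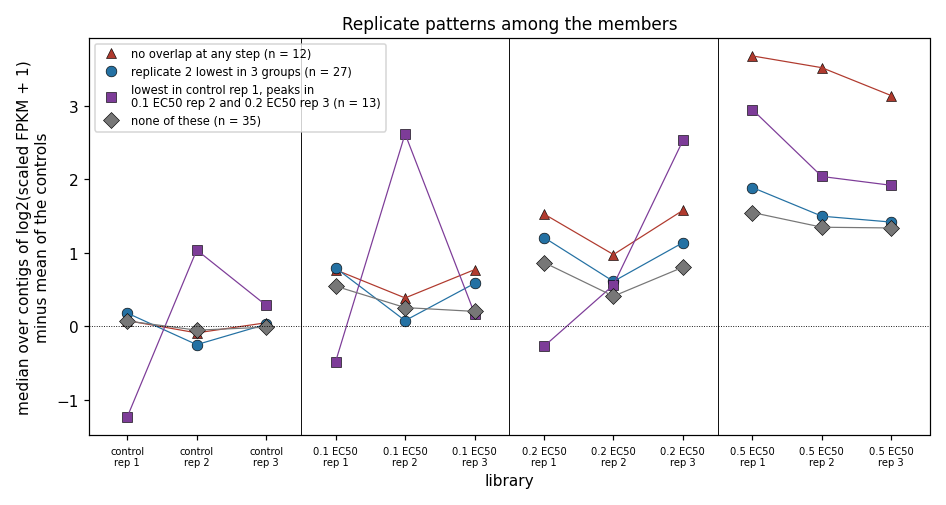
For each library the plot gives the median over contigs of log2(scaled FPKM + 1) minus the mean of the controls, for 12 members without overlap at any step, 27 of pattern B, 13 of pattern A and 35 of none of these; 7 of the 12 are also in pattern B and 1 in pattern A. Lines join libraries of 1 group for the eye only. The median of pattern A swings from -0.477 to 2.62 within 0.1 EC50, while the median of the 12 stays between 0.388 and 0.773 there. Single members of either set can lie outside these medians.

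The names of the members hold 1 more regularity that the rule did not use. Each name ends in 1, 2, 3 or 4, a number that no source used here explains, and 38 of the 79 members (48.1%) end in 4, against 32.1% of the 11520 contigs. Another 21 members end in 1, 10 in 2 and 10 in 3. Whether names with different endings come from separate assemblies, so that 1 transcript could be listed under several of them, is not stated and was not tested. The 79 are therefore a count of contigs and not of genes, and the level of a contig need not be the whole level of its transcript. Per 1000 contigs that passed the 2 FPKM minimum, 10.3 of those ending in 4 were members, 7.73 of those ending in 1, 4.81 of those ending in 2 and 3.30 of those ending in 3. Among the 12 members without overlap at any step, 6 end in 4, 3 in 1, 2 in 3 and 1 in 2.

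The endings also went with libraries. Contigs ending in 4 had their highest value in 0.5 EC50 replicate 3, 0.2 EC50 replicate 1 and 0.2 EC50 replicate 2 more often than contigs in general, by ratios of 2.01, 2.11 and 1.97. For contigs ending in 1 these were 0.5 EC50 replicate 1, 0.1 EC50 replicate 2 and control replicate 1 (1.97, 2.54 and 2.02). For those ending in 2 they were 0.2 EC50 replicate 3 and 0.1 EC50 replicates 1 and 3 (2.51, 2.42 and 2.58), and for those ending in 3 they were 0.5 EC50 replicate 2 and control replicates 2 and 3 (1.71, 2.18 and 1.85). Every library was thus favoured by exactly 1 ending, 3 libraries to an ending, and all other ratios were under 1. Of the contigs above 0 in a single library, all 645 that end in 3 were found in control replicate 2 and all 45 that end in 1 in 0.1 EC50 replicate 2.

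The 3 libraries that go with ending 4 are all at 0.5 or 0.2 EC50. Without them only 1 library is left at 0.2 EC50. For ending 2 only 1 is left at 0.1 EC50, and for ending 3 only 1 control. Counts by ending below therefore rest on unlike sets of libraries. The rule was applied to each ending without the 3 libraries that go with it, an alternative chosen after seeing the data. It gave 92 contigs, of which 51 were among the 79, with 32 of the 38 members ending in 4, 11 of the 21 ending in 1, 3 of the 10 ending in 2 and 5 of the 10 ending in 3. In the same libraries 60 of the 79 members kept their means in the order of the doses. A difference of at least 1 between 0.5 EC50 and control was kept by 75, and its median over the 79 was 1.51. These libraries had also chosen the members, so much of this was set by the choice. The part of the endings in the result was not tested beyond these values.

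**Figure D5:**
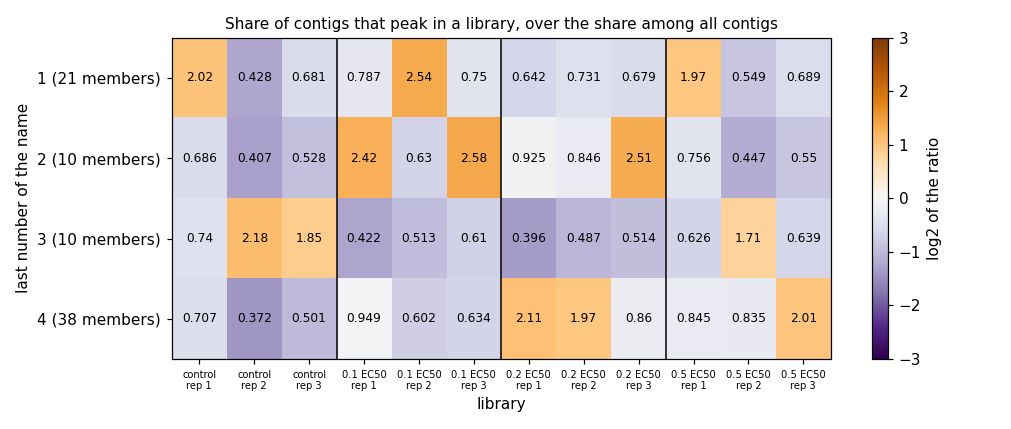
Rows are the last number of the contig name with the number of members that carry it, columns are libraries, and each cell gives the share of contigs of that ending with their highest value in that library, divided by the same share over all contigs. Each column has 1 cell above 1, between 1.71 and 2.58, and each row has 3.

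A Trinity name also carries a gene label, and 41 of the 79 members share theirs with 58 other contigs of the table, always with another last number. Of these, 28 passed the 2 FPKM minimum. Their difference between 0.5 EC50 and control had a median of 0.049 on the log2 scale, against 0.023 over all contigs, and ran from -1.49 to 1.26. That median was 0.172 with values as deposited and 0.139 with an equal total, where all contigs had 0.136 and 0.105. It was 0.0163 without control replicate 1, -0.00971 without control replicate 2 and -0.0177 without the 4 libraries named above, so its direction is not settled. In limma's test 3 of the 28 were called higher at 0.5 EC50 than in control, where 5.28% of all contigs were. Across the 12 libraries the correlation of a member with such a contig had a median of 0.0704 over 28 pairs, and over all 2369 pairs of contigs with a shared gene label it was 0.0132. No gene label occurs more than once with the same last number. Such contigs are not treated as isoforms of the members here.

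The limits of the rule ran through a continuous range of contigs. The member nearest to the limit on the difference at 0.5 EC50 stood at 1.01 and the nearest contig outside it at 0.988, with 50 contigs that failed this limit alone. For the difference at 0.2 EC50 the values were 0.416 inside and 0.38 outside, with 21 contigs. For the share at 0.1 EC50 they were 0.498 and 0.507, with 19 contigs, and for the gap between 0.5 EC50 and control 0.0121 and -0.0129, with 14 contigs. The order of the 4 means alone kept out 20, and the minimum mean of 2 FPKM kept out 94, the highest of them at 1.99 FPKM and the lowest member at 2.03. Without any demand on size, the means of 584 of the 11520 contigs (5.07%) were in the order of the doses. Of the 948 values of the members in the 12 libraries, 14 were listed at 0, in 12 members, of which 10 were in controls, 2 at 0.1 EC50 and 2 at 0.2 EC50.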

How the data were processed

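The authors deposited FPKM values of contigs with Trinity-style names in 12 libraries, in a table whose name states the unit. RNA was extracted with an RNeasy kit and made into Illumina TruSeq libraries, per the labels' protocols. The sources used here give neither assembler, aligner nor filters. The FPKM come without counts, so depth is unknown and no counting interval can be given; each library's values summed to between 503295 and 561291.

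The members, lists and named contigs were chosen with earlier results of these data known. Sample titles gave the dose group of each library, and libraries were scaled by the median of ratios over 10427 contigs above 1 FPKM in every library. The rule's log2(scaled FPKM + 1), with a pseudocount of 1, understates changes of low contigs. A model of all 4 groups was fitted with limma 3.58.1 (R 4.3.3), using eBayes with its trend option, over 11520 contigs with 8 residual degrees of freedom. Replicate numbers pair libraries where all 3 same-numbered pairs of 2 groups had deviations from their group means correlated above 0.1. This held for 0.2 and 0.1 EC50 (0.245 to 0.339) and for no other 2 groups, and the labels name no shared culture or day. Libraries of different groups and different numbers correlated between -0.526 and 0.537, which the replicate block does not cover. Named contigs are the 2 members with the largest difference at each of the 3 steps, given no overlap and at least 5 scaled FPKM in the higher group. Alternatives changed scaling, pseudocount, filter, fit and libraries. Plots were made in Python 3.11.15 with matplotlib 3.10.9.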

Additional observations from a re-analysis of the deposited data

How the results depend on the processing

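The number of contigs found by the rule was 125 with a minimum mean of 1 FPKM, 41 with 5 FPKM, 173 without a filter, 44 with a minimum difference of 1.5 at 0.5 EC50, and 12 without overlap at any step. Values as deposited gave 110, an equal total 104, quantile normalization 80 and a pseudocount of 0.1 gave 86, with 74, 74, 67 and 68 of the 79 members among them. Leaving out 1 library gave 55 to 139 contigs, the highest without 0.2 EC50 replicate 2.

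Of the contigs called higher over the whole table, 608 at 0.5 EC50 against control became 1133 as deposited, 922 with the replicate block and 332 without replicate 2 of the controls, of 0.1 EC50 and of 0.2 EC50 and replicate 3 of 0.1 EC50 (the 4 libraries). With 1 library left out it was 187 to 775: 247 and 266 without control replicates 2 and 3, and 303, 187 and 341 without 0.5 EC50 replicates 1, 2 and 3. The 1016 at 0.2 EC50 against control became 359 without the 4 libraries, and 563 to 1095 with 1 left out, the lowest being 563 without control replicate 3, 603 without 0.2 EC50 replicate 1 and 643 without 0.2 EC50 replicate 2. The 819 at 0.1 EC50 against control became 496 as deposited, 392 with an equal total, 208 without the 4 libraries, 441 in a fit of the 2 groups, and 453 to 882 with 1 left out, 453 without control replicate 3 and 455 without 0.1 EC50 replicate 2. The 593 at 0.5 against 0.2 EC50 became 226 without the 4 libraries, 261 in a fit of the 2 groups, and 278 to 617 with 1 left out, 364 and 369 without 0.2 EC50 replicates 1 and 2 and 307 and 278 without 0.5 EC50 replicates 2 and 3. Between 0.2 and 0.1 EC50 the count of 0 became 3 with an equal total, 1 with quantile normalization, 1 without the prior trend, and 0 to 2 with 1 library left out, 2 without 0.2 EC50 replicate 2.

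Scaling moved the balance of calls, and turned it for 0.5 EC50 against control and against 0.2 EC50. At 0.5 EC50 against control 608 were higher and 754 lower, against 1133 and 417 as deposited and 676 and 432 with an equal total. At 0.1 EC50 819 were higher and 872 lower, against 496 and 1137 as deposited and 392 and 1067 with an equal total. At 0.5 against 0.2 EC50 593 were higher and 445 lower, against 853 and 240 as deposited and 478 and 649 with quantile normalization. The median difference of all contigs at 0.5 EC50 was 0.136 as deposited and 0.023 as scaled, and that of the members 1.68 and 1.58.

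With the replicate block, 11 members and 1113 of all contigs were called higher at 0.1 EC50 than in control, against 7 and 819 without it. Between 0.2 and 0.1 EC50, the 2 groups whose numbers pair, the block left the count at 0. The block was an effect of the replicate number common to all groups, and no paired fit of only these 2 groups was run. Whether their pairing alters that count was therefore not tested. In the other comparisons the libraries share only a number, with correlations between -0.289 and 0.309. The 6 steps by which contigs were named kept their direction under the 17 alternatives run for them. They had been picked as the largest steps without overlap, so leaving out libraries could hardly turn them. Their kept direction is no test of them. Causes were not tested.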

Other observations

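In limma's test over the whole table, contigs whose names end in 4 were called higher at 0.5 EC50 than in control in 243 cases and lower in 211, those ending in 1 in 143 and 193, those ending in 2 in 107 and 143, and those ending in 3 in 115 and 207. The balance depends on the scaling. As deposited, more contigs were called higher than lower in each of the 4 endings, with 474 and 109 for ending 4, 258 and 111 for ending 1, 196 and 76 for ending 2 and 205 and 121 for ending 3. An equal total gave 277 and 122 for ending 4 and 127 and 121 for ending 3. The deposited table holds 22000 distinct names once the last number is left out.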
